A study of Mus musculus with 6 samples.

Results

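The transport proteins that move bile acids and organic anions through hepatocytes were followed as 10 genes in 6 mouse liver tumours. They were chosen by name, as the genes whose RefSeq accession appears among the probes of the array, and all 10 were found, on 14 probes. All 10 passed the filter on dim signal, out of 27412 features tested in all. For 4 of the genes (Slc10a1, Slco1a1, Abcb4 and Abcc3) there were 2 probes, and the brighter one stands for the gene.

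The tumours are hepatocellular carcinomas (HCC) of C57BL/6 mice, 1 tumour per array and 2 tumours in each of 3 groups. One group, Albumin-derived HCC without CLC, came from Alb-AID mice killed at 90 weeks of age (here the Albumin tumours). The other groups came from Epcam-AID mice that had received tamoxifen and a diet containing 0.1% DDC for 8 months. These Epcam-derived HCC lacked CLC in one group and held it in the other, and are called Epcam tumours lacking CLC or bearing CLC. The labels do not spell out CLC. The series title ascribes the Epcam tumours to ductular progenitor cells, the small bile duct cells that multiply in injured liver. The labels give neither the meaning of AID, nor the constructs, nor the sex of the animals, and they give an age for the Albumin tumours alone. Line, diet and tamoxifen therefore differ together between Albumin and Epcam tumours and cannot be told apart. Whether age differs with them is not known. Nothing in the labels says that tumours of a group came from separate mice, so p-values measure the spread between these tumours only.

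Hepatocytes take bile acids and other organic anions from the blood across the basolateral membrane, through the sodium-coupled carrier NTCP and the sodium-independent OATP carriers. They release them into the bile canaliculus through ATP-driven pumps, chiefly BSEP for bile salts and MRP2 for conjugated bilirubin and glutathione conjugates, while MDR2 delivers phospholipid. A further set of exporters, MRP3, MRP4 and OST alpha-beta, returns bile acids and conjugates to the blood. In cholestasis, when bile flow is blocked, uptake carriers are typically lowered and basolateral exporters raised. DDC, which blocks heme synthesis and leads to porphyrin plugs in bile ducts, is used in mice as a model of such injury.

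Promoters are shown for 3 genes whose groups did not overlap in at least 1 comparison below and whose window holds a motif that was searched. None of the 3 passed the limma threshold in any comparison. Slc10a1, Abcb11 and Slc51b also had groups that did not overlap, but no match. A match was thus part of the choice, and its presence beside a difference is not a result. The table of RefSeq promoters (GRCm38.p6) held 9 of the 10 genes, all but Abcc3, with 11 start sites. The 250 bases before the start were searched on both strands for TGACNNNGC, the core of the antioxidant response element bound by NRF2, and for GTTAAT, part of a site for the hepatocyte factor HNF1. Capitals mark the matches. The sequences are from chr6:141629268-141629517 (+) for Slco1b2, chr19:43782058-43782307 (+) for Abcc2, chr14:118706220-118706469 (-) for the upstream Abcc4 start and chr14:118676932-118677181 (-) for the downstream one.
Slco1b2: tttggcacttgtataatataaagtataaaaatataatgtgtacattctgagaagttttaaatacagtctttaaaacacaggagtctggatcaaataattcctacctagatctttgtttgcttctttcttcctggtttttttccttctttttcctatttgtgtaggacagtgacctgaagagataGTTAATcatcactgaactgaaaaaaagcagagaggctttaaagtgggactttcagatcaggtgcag
Abcc2: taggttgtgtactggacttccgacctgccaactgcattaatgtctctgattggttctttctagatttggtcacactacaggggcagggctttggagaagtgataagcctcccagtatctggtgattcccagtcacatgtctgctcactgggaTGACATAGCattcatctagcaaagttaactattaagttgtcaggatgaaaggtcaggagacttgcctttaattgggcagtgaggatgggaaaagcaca
Abcc4, upstream start: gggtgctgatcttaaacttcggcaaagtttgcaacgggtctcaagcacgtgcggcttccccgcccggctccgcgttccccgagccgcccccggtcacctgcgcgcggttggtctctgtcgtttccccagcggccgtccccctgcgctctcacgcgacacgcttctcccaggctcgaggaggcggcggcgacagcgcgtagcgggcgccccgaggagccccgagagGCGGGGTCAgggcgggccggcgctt
Abcc4, downstream start: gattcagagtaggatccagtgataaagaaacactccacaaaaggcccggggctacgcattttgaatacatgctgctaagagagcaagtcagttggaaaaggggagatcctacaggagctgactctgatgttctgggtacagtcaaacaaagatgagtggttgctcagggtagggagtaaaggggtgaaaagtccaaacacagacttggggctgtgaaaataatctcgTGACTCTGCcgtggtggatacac
TGACNNNGC was present in 3 of the 11 member promoters (Abcc2 and both of Abcc4) and in 10.2% of 32817 promoters of the same length. In the upstream Abcc4 promoter it lies on the opposite strand. GTTAAT was present in the Slco1b2 promoter alone among the members and in 6.44% of all promoters. Of the 2 other motifs searched, the inverted repeat of hexamers spaced by 1 base that the bile acid receptor FXR binds (FXRE, IR1) occurred in 0 of the 11 and 0.00609% of all, and CAAAGTCCA, a core of HNF4 sites, in 0 of the 11 and 0.384% of all. The FXRE search took 1 exact form of the repeat, with only the spacer base free. That form is so rare, at 0.00609% of all promoters, that 0 among 11 was likely in any case. Repeats that differ from it by a base were not counted. The 0 therefore does not show that the members lack a repeat of this type. A match is a description of these letters and not a site of binding.

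Signal is given throughout as log2 of the spot intensity minus the 75th percentile of the same array, so 0 is that percentile and a difference of 1 is 2-fold. The 75th percentile ran from 285 to 488 intensity units and 52.0% to 64.6% of probes were well above background, with 0 saturated spots. The arrays lay on 2 slides, slide 1 with both Albumin tumours and replicate 1 with CLC, and slide 2 with the other 3. Only the 2 tumours with CLC link the slides, so a slide block rests on the gap between them. All 10 hepatocyte markers, such as albumin (Alb, 9.41 to 10.35), were well above background on all 6 arrays. Levels of different probes cannot be ranked against each other on an array, so each gene is compared only with itself. Summed levels of markers add linear signals, so the brightest probes weigh most in them. In whole tumours, fewer hepatocytes and less RNA per hepatocyte cannot be told apart.

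**Figure D1:**
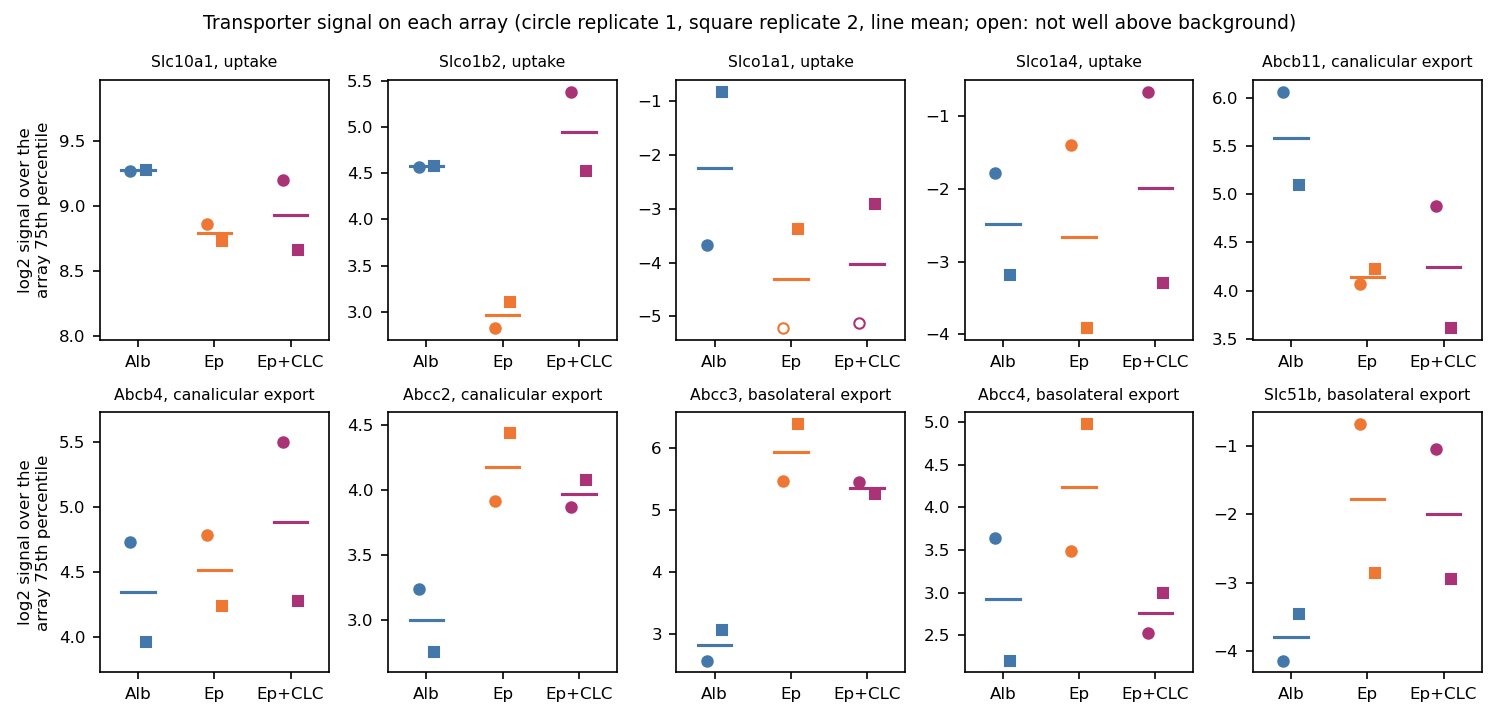
Normalised log2 signal of the 10 transporters on each of the 6 arrays, 1 panel per gene with its own vertical axis, by group (Alb, Albumin tumours; Ep, Epcam tumours lacking CLC; Ep+CLC, Epcam tumours bearing CLC). Circles are replicate 1, squares replicate 2, lines group means, and open symbols are not well above background. Abcc3 lies above 5 on all 4 Epcam arrays and at or below 3.07 on both Albumin arrays, while Slco1b2 lies at or below 3.10 on the 2 Epcam arrays without CLC and above 4.5 on the other 4.

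Among the uptake carriers, Slc10a1 encodes NTCP, the sodium-dependent carrier that brings most conjugated bile acids into hepatocytes. Its signal was 9.27 and 9.28 in Albumin tumours, 8.86 and 8.73 in Epcam tumours lacking CLC, and 9.20 and 8.66 in those bearing CLC. It had the narrowest range of the 10 genes, 0.62 over the 6 arrays, and all 4 Epcam tumours lay below both Albumin ones. Before scaling, the intensity was 175206 and 190613, then 197123 and 193478, then 184867 and 197376 units. On that scale the tumours lacking CLC lay above both Albumin ones, and those bearing CLC overlapped the Albumin ones. A second probe, for another RefSeq transcript, gave 1.90, 0.81, 1.95, 2.08, 3.68 and 1.59 in the same order. That probe was higher, not lower, in the Epcam groups (difference 0.97 for all Epcam tumours, against -0.41 for the first probe), so the direction of Slc10a1 depends on the probe. With quantile scaling the first probe's difference for all Epcam tumours was 0.020.

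Slco1b2 encodes OATP1B2, the main OATP of mouse hepatocytes for bilirubin, unconjugated bile acids and many drugs. Its signal was 4.57 and 4.58 in Albumin tumours, 2.82 and 3.10 in Epcam tumours lacking CLC, and 5.38 and 4.52 in those bearing CLC. The group without CLC from Epcam-AID mice was the low one and overlapped neither of the others. Against Albumin tumours it differed by -1.61 ± 0.36 (log2, SE, n = 2 in each group), 3.06-fold lower, with an adjusted p of 0.115 by limma over all features. With slide as a block that difference was -0.75. Tumours with CLC were higher than those without by 1.99 ± 0.36 (SE, n = 2), a fold of 3.98. The unadjusted limma p was 0.00177, place 50 among the 27412 features, and the adjusted p was 0.940. Within slide 2, where 1 tumour with CLC meets both without, the difference was 1.56. Over the same comparison the 10 hepatocyte markers had a median difference of -0.093, with 3 higher and 7 lower. Bile duct markers, with 10 of 10 tested, had a median difference of 0.94 with 8 higher, and their summed level was 5.55 and 4.93 without CLC against 5.95 and 6.80 with CLC. That sum is mostly the signal of Spp1, at 5.41 and 4.81 against 5.88 and 6.73. The part of these markers in the Slco1b2 difference was not tested.

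Slco1a1 and Slco1a4 encode OATP1A1 and OATP1A4, carriers of bile acids, steroid conjugates and other organic anions. In mouse liver Slco1a1 is known as a male-predominant gene and Slco1a4 as a female-predominant one that is also induced through the xenobiotic receptors CAR and PXR. Slco1a1 signal was -3.67 and -0.83 in Albumin tumours, -5.22 and -3.38 in Epcam tumours lacking CLC, and -5.13 and -2.92 in those bearing CLC. The values of -5.22 and -5.13, both of replicate 1, were not well above background. Slco1a1 thus passed the filter on dim signal only through the Albumin tumours, where its mean was highest. The groups overlapped, since Albumin replicate 1 lay below both replicates 2 of the Epcam groups, and the difference between all Epcam and Albumin tumours was -1.91 ± 1.06 (SE, n = 4 and 2). Without Albumin replicate 2, the highest array, it was -0.49. The second Slco1a1 probe gave -3.17, -2.45, -7.52, -3.84, -6.29 and -2.41, with the same 2 arrays not well above background.

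Slco1a4 went the other way within the Epcam groups. Its signal was -1.78 and -3.18 in Albumin tumours, -1.39 and -3.92 in Epcam tumours lacking CLC, and -0.66 and -3.30 in those bearing CLC. Replicate 1 stood above replicate 2 by 5.77-fold without CLC and 6.22-fold with CLC, and no group difference exceeded 0.68 (log2). The direction of the difference between all Epcam and Albumin tumours, 0.16 ± 1.03 (SE, n = 4 and 2), turned with normexp background correction (-0.029), and that between Epcam tumours lacking CLC and Albumin tumours, -0.18 ± 1.19 (SE, n = 2), turned with the authors' scaling (0.14).

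The split between replicates 1 and 2 of the Epcam groups ran with sex-linked RNA. The Albumin tumours split in the same directions. Slco1a1 was 7.17-fold higher in their replicate 2, against 3.56-fold and 4.63-fold in the Epcam groups without and with CLC. Slco1a4 was 2.64-fold higher in Albumin replicate 1. Xist, the RNA of the inactive X chromosome, was at -0.95 without CLC and -0.08 with CLC in replicate 1, and at -7.42 and -7.77, not well above background, in replicate 2. Eif2s3y, a Y-linked gene, was at -7.39 and -6.02 in replicate 1, not well above background, and at 1.26 and 1.09 in replicate 2. In Albumin tumours Eif2s3y was at 1.47 and 1.01 and Xist at -3.11 and -6.74, the first of them well above background. Cux2, a female-predominant liver factor, was at 1.05 and -0.36 in replicate 1 of the Epcam groups and not well above background on the other 4 arrays. Of the 9 male-biased or Y-linked markers, the median signal was -6.17 and -3.13 in replicate 1 of the Epcam groups without and with CLC and from 1.01 to 1.47 on the other 4 arrays. Of the 8 female-biased markers the median was -2.81 and -1.61 on the former and from -7.51 to -4.02 on the latter, with Sult3a1 and A1bg well above background on no array. Female-biased genes did not all follow that order, since 3 of the 8 were highest in an Albumin tumour. Cyp3a44 was at 6.18 and 5.37 in Albumin tumours against -5.46 and -2.86 in replicate 1 of the Epcam groups. Cyp3a41a was at 8.38 and 7.48 against 6.06 and 7.33, and Cyp2b13 at 2.61 and 0.58 against -0.13 and 0.38. Of the 4 female-biased genes tested, 3 were lower in all Epcam than in Albumin tumours and 1 of them passed the threshold, with a median difference of -3.88. The filter, which needs signal on all arrays of a group, partly set that direction. Cyp2b13 and Cyp3a44 passed it only through the Albumin tumours, where they were high. Xist and Cux2, highest in replicate 1 of the Epcam groups, were not tested. Nor did all male-biased or Y-linked markers follow the split. In replicate 1 with CLC, Uty was at -3.13 and Mup20 at 9.12, against -2.38 and 9.04 in replicate 2. Without CLC both were lower in replicate 1. Uty was well above background on 5 arrays, and Ddx3y was at -5.01 in Albumin replicate 2. The part of sex in the transporter values was not tested, because the labels give no sex. Y-linked signal was judged on Eif2s3y alone. With it as a block in the fit, the difference of Slco1a4 between all Epcam and Albumin tumours was -1.13, against 0.16 without the block.

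**Figure D2:**
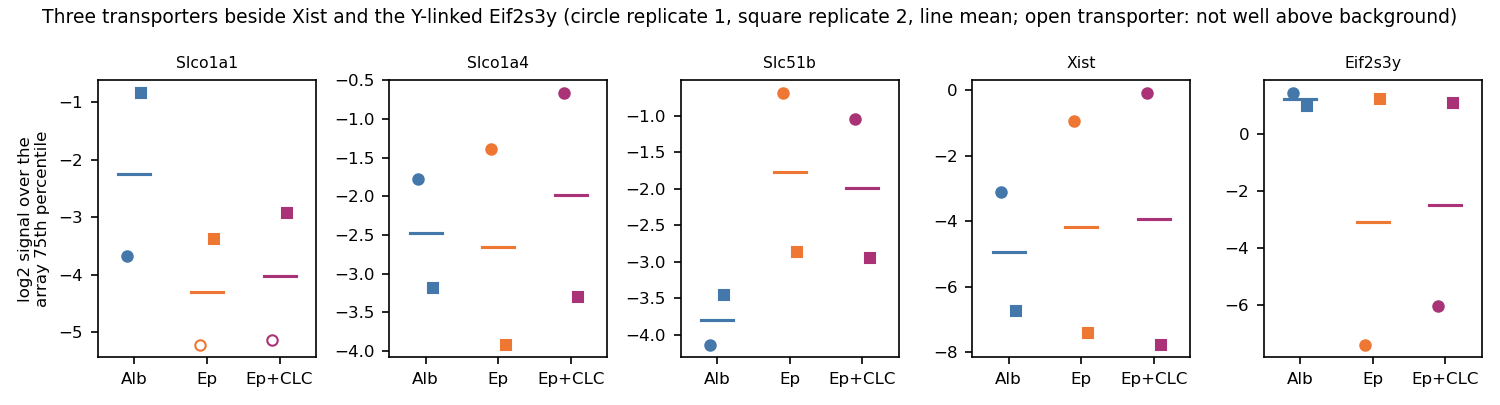
Normalised log2 signal of Slco1a1, Slco1a4 and Slc51b beside Xist and the Y-linked gene Eif2s3y on the 6 arrays, by group (Alb, Albumin tumours; Ep and Ep+CLC, Epcam tumours lacking and bearing CLC); circles are replicate 1, squares replicate 2, lines group means, and open transporter symbols are not well above background. In both Epcam groups replicate 1 is low for Slco1a1 and Eif2s3y and high for Slco1a4, Slc51b and Xist, with Slc51b at -0.68 and -1.04 in replicate 1 against -2.86 and -2.95 in replicate 2.

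Among the canalicular proteins, Abcb11 encodes BSEP, the pump that drives bile salts into bile. Its signal was 6.06 and 5.10 in Albumin tumours, 4.07 and 4.22 in Epcam tumours lacking CLC, and 4.88 and 3.61 in those bearing CLC. All 4 Epcam tumours lay below both Albumin ones. The difference for all Epcam tumours was -1.39 ± 0.46 (log2, SE, n = 4 and 2), 2.62-fold lower, with a limma unadjusted p of 0.0260 and an adjusted p of 0.176. With slide as a block it was -0.43, and without Albumin replicate 1 or Albumin replicate 2 it was -0.91 or -1.87. Over the same comparison all 10 hepatocyte markers were lower, with a median difference of -0.83, and their summed level was 12.17 and 11.92 in Albumin tumours against 10.93 to 11.46 in Epcam tumours. Of 5 macrophage markers 4 were higher, with a median difference of 1.22 and a summed level of 4.43 and 5.23 against 5.31 to 6.32. Endothelial markers were higher for 5 of 5 (median 0.45), and stellate and fibroblast markers for 5 of 5 (median 0.76). T and NK cell markers were higher for 3 of 4, B cell markers for 2 of 2 and bile duct markers for 6 of 10. The part of all these markers in the Abcb11 difference was not tested.

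Abcb4 encodes MDR2, the flippase that supplies phosphatidylcholine to bile and so protects bile ducts from bile salts. Its signal was 4.73 and 3.96 in Albumin tumours, 4.79 and 4.24 in Epcam tumours lacking CLC, and 5.50 and 4.28 in those bearing CLC. The groups overlapped in each comparison and no difference exceeded 0.55 (log2). The second probe gave differences of 0.34, 0.21 and 0.55 for Epcam tumours lacking CLC against Albumin tumours, those bearing against those lacking CLC, and those bearing CLC against Albumin tumours, near the 0.17, 0.38 and 0.55 of the first.

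Abcc2 encodes MRP2, the canalicular pump for bilirubin glucuronides and glutathione conjugates. Its signal was 3.24 and 2.76 in Albumin tumours, 3.92 and 4.44 in Epcam tumours lacking CLC, and 3.87 and 4.08 in those bearing CLC. All 4 Epcam tumours lay above both Albumin ones, unlike Abcb11 at the same membrane. The difference was 1.08 ± 0.28 (SE, n = 4 and 2), a fold of 2.11, with a limma unadjusted p of 0.00944 and an adjusted p of 0.121. It lay between 0.84 and 1.40 in all 16 alternatives run, none of which took it past the threshold. Tumours with and without CLC differed by -0.20 ± 0.32 (SE, n = 2). A match to the antioxidant response element core lies in the Abcc2 promoter printed above.

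Among the basolateral exporters, Abcc3 encodes MRP3, which exports bilirubin glucuronide, other glucuronides and bile acids to the blood. Its signal was 2.58 and 3.07 in Albumin tumours, 5.47 and 6.38 in Epcam tumours lacking CLC, and 5.45 and 5.25 in those bearing CLC. Every Epcam tumour lay above both Albumin ones. Abcc3 was the gene among the 10 that rose past the threshold, in all Epcam against Albumin tumours, by 2.81 ± 0.34 (log2, SE, n = 4 and 2), a fold of 7.01 (limma, adjusted p = 0.0422). For tumours lacking CLC the difference from Albumin tumours was 3.10 ± 0.39 (SE, n = 2), a fold of 8.56 (adjusted p = 0.0586), and for tumours bearing CLC it was 2.52 ± 0.39 (SE, n = 2), a fold of 5.74 (adjusted p = 0.0976). These comparisons share the Albumin arrays. The second Abcc3 probe gave -1.55 and -1.12, then 1.68 and 2.48, then 1.55 and 1.44, a difference of 3.12 for all Epcam tumours.

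The size of the Abcc3 difference was steadier than its call. Over 16 alternatives it ran from 2.56 to 3.13, in the same direction in all of them, and its adjusted p was under the threshold in 5 (lowest 0.0195, highest 0.290). Leaving out any 1 array ended the call, with limma adjusted p of 0.170 and 0.171 without Albumin replicates 1 and 2, 0.0601 and 0.0813 without Epcam replicates 1 and 2 lacking CLC, and 0.0941 and 0.108 without replicates 1 and 2 with CLC. The call ended too when dim probes were kept (0.143), with the replicate number as a block (0.0647), with Y-linked signal as a block (0.0638), without the 2 arrays lacking Y-linked signal (0.120) and with slide as a block (difference 2.96, 0.290). Within slide 1, replicate 1 with CLC differed from both Albumin tumours by 2.62.

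Abcc3, Abcc2 and Abcc4 are known targets of the oxidative stress regulator NRF2, whose other targets are given beside them. Of 9 NRF2 target genes tested, 8 were higher in all Epcam than in Albumin tumours, at a median difference of 2.02 (log2), and 1 of them, the carbonyl reductase Cbr3, passed the threshold. Their summed level was 6.66 and 6.26 in Albumin tumours, 8.14 and 9.36 without CLC, and 8.37 and 8.67 with CLC. Nqo1, a quinone reductase, was at 0.08 and -0.93, then 2.03 and 2.94, then 2.11 and 2.20. Replicate 2 without CLC was the highest of the 6 arrays for Nqo1, for the NRF2 sum and for Abcc2, Abcc3 and Abcc4 alike. Other values ran differently. Abcc4 was at 2.52 and 2.99 with CLC, against 3.64 and 2.20 in Albumin tumours. Hmox1, the 1 of the 9 targets that was not higher, was highest in Albumin replicate 2 (3.53). The part of NRF2 in the exporter values was not tested. Nfe2l2, the NRF2 gene itself, lay between 2.49 and 2.97 on all arrays.

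**Figure D3:**
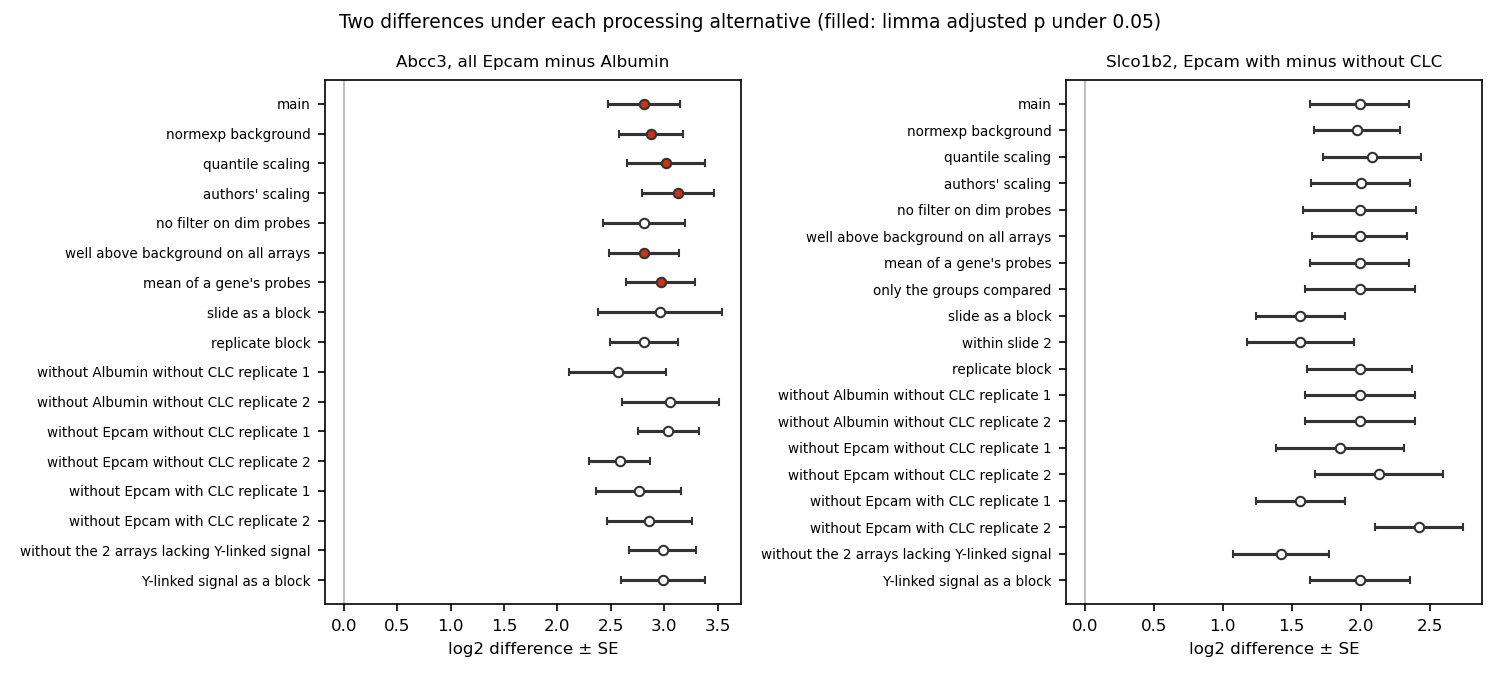
Log2 difference with its standard error for Abcc3 (left, all Epcam minus Albumin tumours) and Slco1b2 (right, Epcam tumours with minus without CLC) as reported (main) and under each processing alternative; filled points have a limma adjusted p under 0.05. Abcc3 stays between 2.56 and 3.13 and Slco1b2 between 1.42 and 2.42, and no alternative brings Slco1b2 past the threshold.

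Abcc4 encodes MRP4, an exporter of bile acids with glutathione, sulphated steroids and cyclic nucleotides. Its signal was 3.64 and 2.20 in Albumin tumours, 3.49 and 4.98 in Epcam tumours lacking CLC, and 2.52 and 2.99 in those bearing CLC. The 2 tumours bearing CLC lay below both Epcam tumours without it, with a difference of -1.48 ± 0.68 (SE, n = 2), 2.80-fold lower (limma, adjusted p = 0.999). Without Epcam replicate 2 lacking CLC, the highest array, that difference was -0.74, and without replicate 1 it was -2.23. Against Albumin tumours the difference was 1.32 ± 0.68 (SE, n = 2) for tumours lacking CLC and -0.17 ± 0.68 (SE, n = 2) for tumours bearing CLC, with overlap in both. The latter was 0.15 with the authors' scaling.

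Slc51b encodes OST beta, the partner of OST alpha (Slc51a) in the heteromeric carrier that lets bile acids leave cells by facilitated diffusion. Its signal was -4.14 and -3.46 in Albumin tumours, -0.68 and -2.86 in Epcam tumours lacking CLC, and -1.04 and -2.95 in those bearing CLC. All 4 Epcam tumours lay above both Albumin ones, with a difference of 1.92 ± 0.79 (SE, n = 4 and 2), a fold of 3.78 (limma, unadjusted p = 0.0551, adjusted p = 0.240). Replicate 1 exceeded replicate 2 by 4.53-fold without CLC and 3.74-fold with CLC, and among the Epcam arrays those were the 2 on which Xist was well above background. In Albumin tumours the array with Xist above background, replicate 1, was the lower one. With Y-linked signal as a block the difference for all Epcam tumours was 0.90, and with slide as a block it was 3.35. With normexp, whose offset shrinks dim signal, the difference was 0.70. Slc51a was well above background on no array, with values from -7.71 to -6.12, and was not tested. Probes on an array detect unequally, so this does not show the absence of its RNA.

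**Figure D4:**
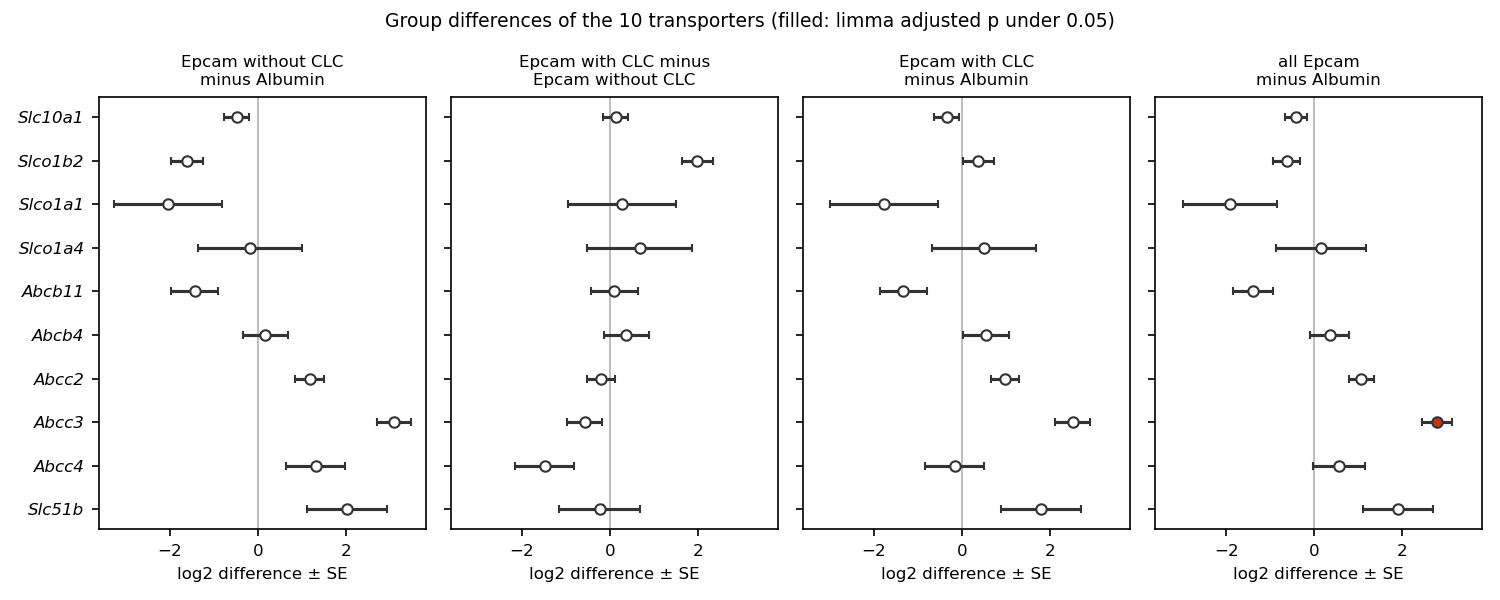
Log2 difference with its standard error for the 10 transporters in the 4 comparisons, in the order uptake, canalicular and basolateral export from top to bottom; the filled point has a limma adjusted p under 0.05. The filled point is Abcc3 at 2.81 in all Epcam minus Albumin tumours.

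Set side by side by role, Epcam tumours lacking CLC had lower values than Albumin tumours for 4 of 4 uptake carriers (median log2 difference -1.05) and higher values for 3 of 3 basolateral exporters (median 2.03), with 2 of 3 canalicular proteins higher (median 0.17). Over all features the median was 0.060. Of the 4 uptake carriers, 2 (Slc10a1 and Slco1b2) did not overlap. For Slc10a1 this depends on the scaling. Its unscaled intensity was higher, at 197123 and 193478 units against 175206 and 190613 in Albumin tumours. The count rests on directions that turn: Slc10a1 was at 0.089 with the mean of its probes, and Slco1a4 ranged from -1.44 to 1.09 with 1 array left out. Slco1a1, with the largest of the 4 differences at -2.05, passed the filter on dim signal only through the Albumin tumours, where it was high. Its direction therefore adds no support to the count or the median. In this comparison limma called 0 of the 10 transporters, against 0.244% of all features (67, of which 16 higher and 51 lower; with the authors' scaling 63 and 66). At an unadjusted p under 0.05 there were 4 transporters (Slco1b2, Abcb11, Abcc2 and Abcc3) against 20.0% of features. The groups did not overlap upwards for 3 transporters (Abcc2, Abcc3 and Slc51b), against 30.4% of features, and downwards for 3 (Slc10a1, Slco1b2 and Abcb11), against 24.8%. The shares that did not overlap are near the background and are not a result about the transporters. No slide holds both groups, and the slides are linked only by the tumours bearing CLC, 1 on each. The slide effect in the fit is therefore the gap between these 2 tumours, which also differ in Xist (-0.08 and -7.77). Slide and tumour cannot be told apart in it. With slide as a block in the fit of all 3 groups, Slco1b2 differed by -0.75, Abcb11 by -0.16, Slc10a1 by 0.056 and Slco1a4 by 2.46, while Abcc2 differed by 0.97 and Abcc3 by 3.30, and limma called 0 features. Hepatocyte markers were lower for 9 of 10, with a median difference of -0.72, and their summed level was 12.17 and 11.92 against 11.46 and 11.00. Their part in the uptake values was not tested.

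Between Epcam tumours bearing and lacking CLC, which share line and diet, 6 of 10 transporters were higher and 4 lower, with a median difference of 0.12 against -0.061 for all features. All 4 uptake carriers were higher (median 0.47) and all 3 basolateral exporters lower (median -0.58). With slide as a block, within slide 2 and without replicate 1 with CLC, only 2 of 10 were higher, Slco1b2 and Slco1a1. These settings give the same differences, since in each only replicate 2 with CLC meets the tumours lacking CLC. Limma called 0 of the 10 and 0.00% of features, with a smallest adjusted p of 0.651. At an unadjusted p under 0.05 stood 1 transporter, Slco1b2, against 3.48% of features (954). Slco1b2 was the 1 transporter whose groups did not overlap upwards, against 10.3% of features, and Abcc3 and Abcc4 the 2 that did not overlap downwards, against 19.8%.

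Tumours with CLC were higher than Albumin tumours for 6 of 10 transporters and lower for 4, with a median difference of 0.44 against -0.0096 for all features. Limma called 0 of the 10 against 0.0620% of features (17), and at an unadjusted p under 0.05 there were 3 transporters (Abcb11, Abcc2 and Abcc3) against 16.0%. The groups did not overlap upwards for Abcc2, Abcc3 and Slc51b, 3 of 10 against 23.8% of features, and downwards for Slc10a1 and Abcb11, 2 of 10 against 27.0%. Hepatocyte markers were lower for 10 of 10 in this comparison, with a median difference of -1.04, and macrophage markers higher for 4 of 5, with a median of 1.69. Endothelial markers were higher for 5 of 5 (median 0.46), and stellate and fibroblast markers for 5 of 5 (median 0.73). T and NK cell markers were higher for 3 of 4, B cell markers for 2 of 2 and bile duct markers for 8 of 10. Slco1b2, low without CLC, was at 0.38 ± 0.36 (SE, n = 2) in this comparison, and at -0.051 without replicate 1 with CLC.

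For all Epcam against Albumin tumours, limma called 1 of 10 transporters, Abcc3, against 0.814% of features (223, of which 69, or 0.252% of features, higher and 154 lower; with the authors' scaling 483 and 205). At an unadjusted p under 0.05 there were 3 transporters (Abcb11, Abcc2 and Abcc3) against 21.7% of features. The groups did not overlap upwards for 3 of 10 (Abcc2, Abcc3 and Slc51b), against 17.6% of features, and downwards for 2 of 10 (Slc10a1 and Abcb11), against 18.2%. The median difference was 0.26 for the 10 transporters and 0.034 for all features. The authors' scaling raised the median of all features from 0.034 to 0.35 and that of the transporters to 0.58, and normexp lowered the former to -0.14.

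Of 27 related transporters, 24 were tested and 0 passed limma's threshold in any of the 4 comparisons, in either direction. Against Albumin tumours, 13 were higher and 11 lower in all Epcam tumours, with a median difference of 0.21. The one with the smallest p was Slc22a7, encoding the organic anion carrier OAT2 of the hepatocyte basolateral membrane. Its signal was 2.77 and 3.20 in Albumin tumours, 1.69 and 0.32 in Epcam tumours lacking CLC, and -1.45 and -0.82 in those bearing CLC. No group overlapped another, and tumours bearing CLC differed from Albumin tumours by -4.12 ± 0.52 (SE, n = 2), 17.4-fold lower (limma, adjusted p = 0.0751), and from Epcam tumours lacking CLC by -2.14 ± 0.52 (SE, n = 2). For all Epcam tumours the difference was -3.05 ± 0.45 (SE, n = 4 and 2; limma, adjusted p = 0.0569). Over the alternatives its adjusted p ran from 0.0357 with normexp to 0.291 with slide as a block, and was 0.187 and 0.207 without Albumin replicates 1 and 2.

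Abcg5 and Abcg8, the paired pump that secretes cholesterol and plant sterols into bile, both lay lower in the 2 tumours bearing CLC than on the other 4 arrays. Abcg5 was at 5.54 and 5.37 in Albumin tumours, 5.40 and 5.44 in Epcam tumours lacking CLC, and 4.37 and 4.01 in those bearing CLC. Abcg8 was at 4.40 and 4.02, then 3.74 and 3.51, then 2.67 and 2.32. Their differences between tumours bearing and lacking CLC were -1.23 ± 0.26 and -1.13 ± 0.29 (SE, n = 2; limma, adjusted p = 0.999 for each, and unadjusted p = 0.00416 and 0.00917). Slco2a1, a prostaglandin carrier, differed by -1.24 ± 0.28 (SE, n = 4 and 2) between all Epcam and Albumin tumours. Abcc1, encoding the exporter MRP1, differed by 1.55 ± 0.46 (SE, n = 2) between Epcam tumours lacking CLC and Albumin tumours, and by 0.99 with normexp.

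All 23 regulators and scaffold proteins were tested and 0 passed in any comparison. Ezr encodes ezrin, a linker of membrane proteins to actin that bile duct cells hold in place of the radixin of hepatocytes. It was at -1.50 and -1.37 in Albumin tumours, -0.12 and 0.81 in Epcam tumours lacking CLC, and 1.06 and 1.19 in those bearing CLC, a difference of 2.17 ± 0.32 (SE, n = 4 and 2) for all Epcam tumours (limma, adjusted p = 0.0564). Over the alternatives the adjusted p of Ezr ran from 0.0419 with the authors' scaling to 0.370 with slide as a block, and was 0.217 and 0.203 without Albumin replicates 1 and 2. Myo5b, a motor that carries pumps to the canaliculus, differed by 0.66 ± 0.22 and the nuclear receptor Nr5a2 by 0.71 ± 0.31 (SE, n = 4 and 2) in that comparison. The former was 0.42 with the mean of its probes and the latter 0.20 with slide as a block. Nr1h4, encoding the bile acid receptor FXR, differed by 0.81 ± 0.57 and the vitamin D receptor Vdr by -1.25 ± 0.93 (SE, n = 2) between tumours bearing and lacking CLC. Vdr was above background on 1 of 2 arrays with CLC and passed the filter on dim signal only through the tumours lacking CLC, where it was higher. The Nr1h4 difference was 0.38 with slide as a block and 0.21 and 1.41 without Epcam replicates 1 and 2 lacking CLC, and that of Vdr was 0.21 without the first of these. Nr0b2, the FXR-induced repressor SHP, differed by 0.93 ± 0.52 (SE, n = 2) between tumours bearing CLC and Albumin tumours. It was 1.68 and 0.17 without Albumin replicates 1 and 2, and 0.24 with normexp.

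All 10 enzymes of bile acid synthesis and conjugation were tested and 0 passed in any comparison. Cyp8b1, which directs synthesis towards cholic acid, had a mean of 0.65 in Albumin tumours and was at -4.72 and -2.62 in Epcam tumours lacking CLC and at -4.39 and -2.46 in those bearing CLC. Its difference for all Epcam tumours was -4.20 ± 0.80 (SE, n = 4 and 2), 18.4-fold lower (limma, adjusted p = 0.0760), and it was well above background on 1 of the 2 arrays with CLC. With normexp the difference was smaller, -2.66, at an adjusted p of 0.0312, and the highest adjusted p over the alternatives was 0.294, without Albumin replicate 1. Cyp2c70, which makes the muricholic acids of mice, differed by -1.61 ± 0.24 (adjusted p = 0.0587) and Akr1d1, a steroid 5-beta-reductase, by 2.25 ± 0.44 (adjusted p = 0.0785). The adjusted p of Cyp2c70 ran from 0.0296 with normexp to 0.389 with slide as a block, and the Akr1d1 difference was 1.22 with normexp. Cyp27a1, which oxidises the sterol side chain, differed by 1.49 ± 0.36 (SE, n = 2) between Epcam tumours lacking CLC and Albumin tumours, and Cyp7b1, the oxysterol hydroxylase, by -1.04 ± 0.87 (SE, n = 2) between tumours bearing and lacking CLC. The Cyp7b1 difference rests on single arrays: it was -0.094 with slide as a block or without replicate 1 with CLC, -0.059 without Epcam replicate 2 lacking CLC, and -2.03 without replicate 1 lacking CLC.

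Other genes followed Abcc3, the exporter with the widest range, across the 6 arrays, by the correlation of normalised log2 signal among 9070 named genes with a range of at least 1. For Abcc3, whose range was 3.80, the highest Pearson coefficients were those of Tmem38b (0.993), Dock4 (0.990) and Fam169b (0.990). The 6 points share arrays, slides and scaling, and such values are the highest among 9070.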

How the data were processed

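RNA of 6 frozen tumours was labelled with Cy3 and hybridised to 1-colour Agilent arrays, and per the file headers their images were quantified by Agilent Feature Extraction, version 11.5.1.1. The authors deposited processed signal intensity, on a linear scale, for 62976 spots per array, already background-corrected by that software per the file headers. Their value table, which the authors deposited as a linear signal, equals the processed intensity times 1 factor per array (1.64 to 2.42, with column medians from 55.0 to 80.0) and is neither logged nor centred. It runs in the same direction, and the basis of its factors is unknown.

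Here log2 intensity minus the array's 75th percentile was used. Control and outlier spots were left out and a probe had to be well above background, in at least 0.5 of its spots, on all arrays of at least 1 group. Probes with 1 RefSeq gene were named through the RefSeq gene table of GRCm38.p6, and the brightest probe stood for a gene, leaving 27412 features. One limma model (version 3.58.1, R 4.3.3) held all 6 arrays in 3 groups, with no covariate, 3 residual degrees of freedom and 2.62 prior ones. P-values were adjusted over all features (Benjamini-Hochberg, threshold 0.05). The number of arrays limits the precision. The model was tested on simulated data.

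The alternatives were normexp (offset 50, on the median rather than the mean foreground signal, which was not used here), quantile scaling, the authors' scaling, other filters, the mean of a gene's probes, fewer groups, slide or replicate number as a block, single slides and each array left out. Y-linked signal as a block, the fit without the 2 arrays lacking it, and slide as a block for Epcam tumours lacking CLC against Albumin tumours were chosen after seeing the data. Y-linked signal was taken as present where Eif2s3y was well above background. The alternatives are not independent checks, since some give the same differences. Slide as a block and within slide 2 do so between tumours with and without CLC. All 10 transporters were named, and from each related list the 3 genes with the smallest p in each comparison. The transporters and lists were chosen with earlier results of these data known. Genes most like the widest-ranging exporter were named by correlation over the arrays, and the same for the widest-ranging uptake carrier is not reported here.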

Additional observations from a re-analysis of the deposited data

How the results depend on the processing

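Each group held 2 tumours, so 1 array can decide a value. Slco1b2 lay higher with than without CLC and Abcc3 and Abcc2 higher in all Epcam-derived tumours under every alternative run for those comparisons, while Slc10a1, Slco1a4 and Abcb4 turned in several. Causes of the changes below were not tested. Dim signal limits Slco1a1, which was not well above background on 2 of 6 arrays.

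The features called in Epcam-derived without CLC against Albumin-derived tumours, 67, became 135 with normexp, 102 with quantile scaling, 129 with the authors' scaling, 1 with no filter, 32 with probes well above background on all arrays, 110 with the mean of a gene's probes, 16 with only the groups compared, 0 with slide as a block and 0 without the 2 arrays lacking Y-linked signal, and lay between 0 and 16 with 1 array left out. For tumours with CLC against Albumin-derived tumours, 17 became 66 with normexp, 66 with quantile scaling, 1 with no filter, 0 with only the groups compared, 0 with slide as a block, 0 within slide 1, 0 without the 2 arrays lacking Y-linked signal and 29 with Y-linked signal as a block, and stayed at 0 with any 1 array left out (range 0 to 0). For all Epcam-derived tumours, 223 became 369 with normexp, 688 with the authors' scaling, 7 with no filter, 131 with probes well above background on all arrays, 0 with slide as a block and 0 without the 2 arrays lacking Y-linked signal, and lay between 0 and 53 with 1 array left out. Between tumours with and without CLC, limma called 0 features under every alternative run.

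With the replicate number as a block the counts were 11, 0 and 67 for the 3 comparisons against Albumin-derived tumours, and 0 between tumours with and without CLC. The labels do not tie equal numbers to a shared animal or batch, and the numbers were not taken as pairs: the correlation of deviations between same-numbered tumours was -0.16 and 0.06 for Albumin-derived with the Epcam-derived groups without and with CLC, and 0.23 between the latter. Outside their own group, 4 of 6 arrays correlated best with an array of their own number. In both Epcam-derived groups number 1 went with Xist and number 2 with Eif2s3y, the gene by which Y-linked signal was judged.

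The transporters higher with than without CLC, 6, were 2 with slide as a block, 2 within slide 2 and between 2 and 6 with 1 array left out. Those higher in all Epcam-derived tumours, 6, were between 3 and 6 with 1 array left out.

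Differences that turned sign, none of which had been called, were as follows. For Epcam-derived without CLC against Albumin-derived tumours, Slco1a4 was 0.14 with the authors' scaling and 2.46 with slide as a block, Slc10a1 0.089 with the mean of its probes and 0.056 with slide as a block, and Abcb4 -0.27 with Y-linked signal as a block and -0.10 without the 2 arrays lacking it. With 1 array left out Slco1a4 ranged from -1.44 to 1.09 and Abcb4 from -0.22 to 0.56.

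Between tumours with and without CLC, Slc10a1 was -0.13, Slco1a4 -0.64, Abcb11 -0.53 and Abcb4 -0.23 with slide as a block, and the same within slide 2. Without the 2 arrays lacking Y-linked signal, Slc10a1 was -0.067, Abcb11 -0.61, Nr1h4 -0.22 and Vdr 0.49. With 1 array left out the ranges were -0.13 to 0.40 for Slc10a1, -0.84 to 1.38 for Slco1a1, -0.64 to 2.00 for Slco1a4, -0.53 to 0.74 for Abcb11, -0.23 to 0.98 for Abcb4, -0.47 to 0.060 for Abcc2, -1.32 to 0.86 for Slc51b, -2.72 to 0.21 for Vdr and -1.34 to 0.13 for Akr1d1.

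For tumours with CLC against Albumin-derived tumours, Abcc4 was 0.32 and Slco1a4 -0.79 with Y-linked signal as a block, Abcc4 0.15 with the authors' scaling, and Slc10a1 0.47 with the mean of its probes and 0.10 with quantile scaling. Without the 2 arrays lacking Y-linked signal, Abcb4 was -0.060, Abcc4 0.068, Slco1a4 -0.81 and Slco1b2 -0.051. With 1 array left out the ranges were -0.051 to 0.81 for Slco1b2, -0.81 to 1.82 for Slco1a4, -0.060 to 1.16 for Abcb4 and -0.89 to 0.56 for Abcc4.

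For all Epcam-derived tumours, Slc10a1 was 0.28 with the mean of its probes and 0.020 with quantile scaling, Slco1b2 was 0.027 with slide as a block, and Slco1a4 was -0.029 with normexp. With Y-linked signal as a block, and likewise without the 2 arrays lacking it, Abcb4 was -0.081 and Slco1a4 -1.13. With 1 array left out the ranges were -0.54 to 0.86 for Slco1a4, -0.027 to 0.75 for Abcb4 and -0.15 to 1.30 for Abcc4.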
